A study of Arabidopsis thaliana with 27 samples.

Results

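Transcripts of 10 Arabidopsis (*Arabidopsis thaliana*) genes for the synthesis and oxidation of *myo*-inositol and for the synthesis of ascorbate (vitamin C) were followed in sorted leaf cells and in roots. The genes were chosen by locus identifier for the enzymes they encode, with earlier results of these data known. These 10 are among the 33602 genes in the count data. They are the inositol 3-phosphate synthases *MIPS1* (AT4G39800, chromosome 4), *MIPS2* (AT2G22240, chromosome 2) and *MIPS3* (AT5G10170, chromosome 5). The inositol oxygenases are *MIOX1* (AT1G14520, chromosome 1), *MIOX2* (AT2G19800, chromosome 2), *MIOX4* (AT4G26260, chromosome 4) and *MIOX5* (AT5G56640, chromosome 5). The ascorbate genes are *VTC2* (AT4G26850, chromosome 4), *VTC5* (AT5G55120, chromosome 5) and *VTC4* (AT3G02870, chromosome 3).

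Inositol 3-phosphate synthase makes inositol phosphate from glucose 6-phosphate, and a phosphatase then releases free inositol, which feeds phospholipids, phytate, galactinol and other products. Inositol oxygenase opens the inositol ring to give glucuronate, which glucuronokinase and a pyrophosphorylase turn into UDP-glucuronate, a precursor of cell wall sugars. Plants make most ascorbate from GDP-mannose through L-galactose, and the GDP-L-galactose phosphorylases VTC2 and VTC5 catalyze the first committed step of that route. VTC4 removes the phosphate from L-galactose 1-phosphate and also acts on inositol phosphate, so that it stands in both pathways.

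The study sorted protoplasts of first true leaves by fluorescence to compare palisade mesophyll cells with other photosynthetic cells, and sequenced their mRNA in 9 groups of 3 libraries. In 6 groups the plants were Col-0 carrying *IQD22*_pro_:*GUS-mCit*, a reporter under the promoter of *IQD22* that is active in the palisade and in some other cells. Their leaf protoplasts were sorted into palisade (mCit-positive) and reference libraries, which the study paired by pool where possible. These were prepared without inhibitors at low light (50 µE), with the transcription inhibitors actinomycin D and cordycepin at low light, or with inhibitors after 2 h at 300 µE (high light). A further pair of groups came from the GFP enhancer trap line JR11-2, introgressed into Col-0, at low light without inhibitors. The last group came from total root protoplasts of Col-0 without inhibitors. Plants were 17 d old, each leaf library came from a pool of many leaves, and the 24 leaf libraries represent 12 pools. In JR11-2 the reporter marks spongy mesophyll, so its libraries labelled palisade are the GFP-negative photosynthetic cells and its reference libraries are the GFP-positive cells. Each reporter was a single transgenic line, and nothing in the labels shows that root libraries came from separate plantings, so that *P*-values for roots measure the spread between these samples.

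Each library held between 15074702 and 38792923 counts on genes. Levels are given as CPM, that is, counts put on a common library size by edgeR's TMM method over all 27 libraries, and levels of different genes are compared only as CPM per kilobase (kb) of transcript. No 50-base stretch of any of the 10 transcripts recurred exactly in another gene's annotated transcript, so reads without mismatches could be told apart between paralogues. Stretches that differ by a few bases were not examined. *IQD22*, the gene whose promoter drove the reporter, was at 44.7 to 52.5 CPM in palisade and 10.5 to 12.2 CPM in reference libraries with inhibitors at low light. The 3 mesophyll markers summed to between 8451 and 34747 CPM in every leaf group, whereas the 4 guard cell markers summed to at most 6.63 CPM and the trichome marker *GL2* to at most 0.0485 CPM. *SULTR2;2*, a bundle sheath marker, was at 0.133 to 1.80 CPM in *IQD22* palisade libraries and at 25.6 to 62.3 CPM in their reference libraries. In JR11-2 it was at 10.6 to 19.3 CPM in palisade and 27.3 to 46.2 CPM in reference libraries. The 3 phloem and companion cell markers (*SUC2*, *APL* and *SEOR1*), none of them at 0 in any group, summed to 1.47 to 12.8 CPM in *IQD22* palisade and 7.49 to 29.0 CPM in *IQD22* reference libraries, and all 3 were lower in the palisade in each of the 3 *IQD22* comparisons. The part of bundle sheath and phloem cells in the differences between palisade and reference cells was not tested. These are bulk measurements, in which fewer cells of a type and less RNA per cell cannot be told apart.

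Each enzyme was represented mainly by 1 or 2 of its genes, and these differed between leaf and root. Among the synthases of leaf cells, *MIPS1* was the most abundant in every leaf group, at 119 to 230 CPM per kb, ahead of *MIPS2* at 8.70 to 53.6 CPM per kb. *MIPS3* contributed 0.0702% to 0.381% of the synthase transcripts per kb in the leaf groups (group means). In roots *MIPS3* made up 29.7% ± 7.33 (SD, n = 3), with *MIPS1* at 17.9 CPM per kb and *MIPS3* at 9.21 CPM per kb. The paralogues of this family were thus ordered differently by organ, *MIPS3* being above *MIPS2* (2.62 CPM per kb) only in the root group.

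Among the oxygenases, *MIOX1* and *MIOX2* were both transcribed in leaf cells. In palisade cells with inhibitors at low light, *MIOX2* reached 35.6 CPM per kb and *MIOX1* 27.4 CPM per kb. Roots had *MIOX2* alone at a substantial level, 97.8 CPM per kb against 0.418 CPM per kb of *MIOX1*, so that *MIOX2* accounted for 99.0% ± 0.550 (SD, n = 3) of oxygenase transcripts per kb there. *MIOX4* stayed at or below 1.49 CPM in every low-light and root library and reached 2.14 to 13.8 CPM at high light. *MIOX5* had 5 counts in all 27 libraries together and never more than 2 in 1 library, below the 3 counts taken here as the floor of detection. It could not be tested in any comparison, and its transcript was not detectable at this depth.

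*VTC2* was the predominant GDP-L-galactose phosphorylase transcript of leaf cells. It stood at 110 to 226 CPM per kb in the low-light leaf groups and at 656 CPM per kb in palisade cells at high light, against 9.04 to 40.1 CPM per kb of *VTC5* over all leaf groups. The ratio of *VTC2* to *VTC5* per kb was 21.6 ± 6.90 (SD, n = 3) in palisade cells with inhibitors at low light. It was 4.67 ± 1.03 in palisade cells without inhibitors and 0.814 ± 0.223 in roots (both SD, n = 3). *VTC4* had the narrowest span of the ascorbate genes, from 9.76 CPM per kb in roots to 32.6 CPM per kb in reference cells with inhibitors at low light.

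**Figure D1:**
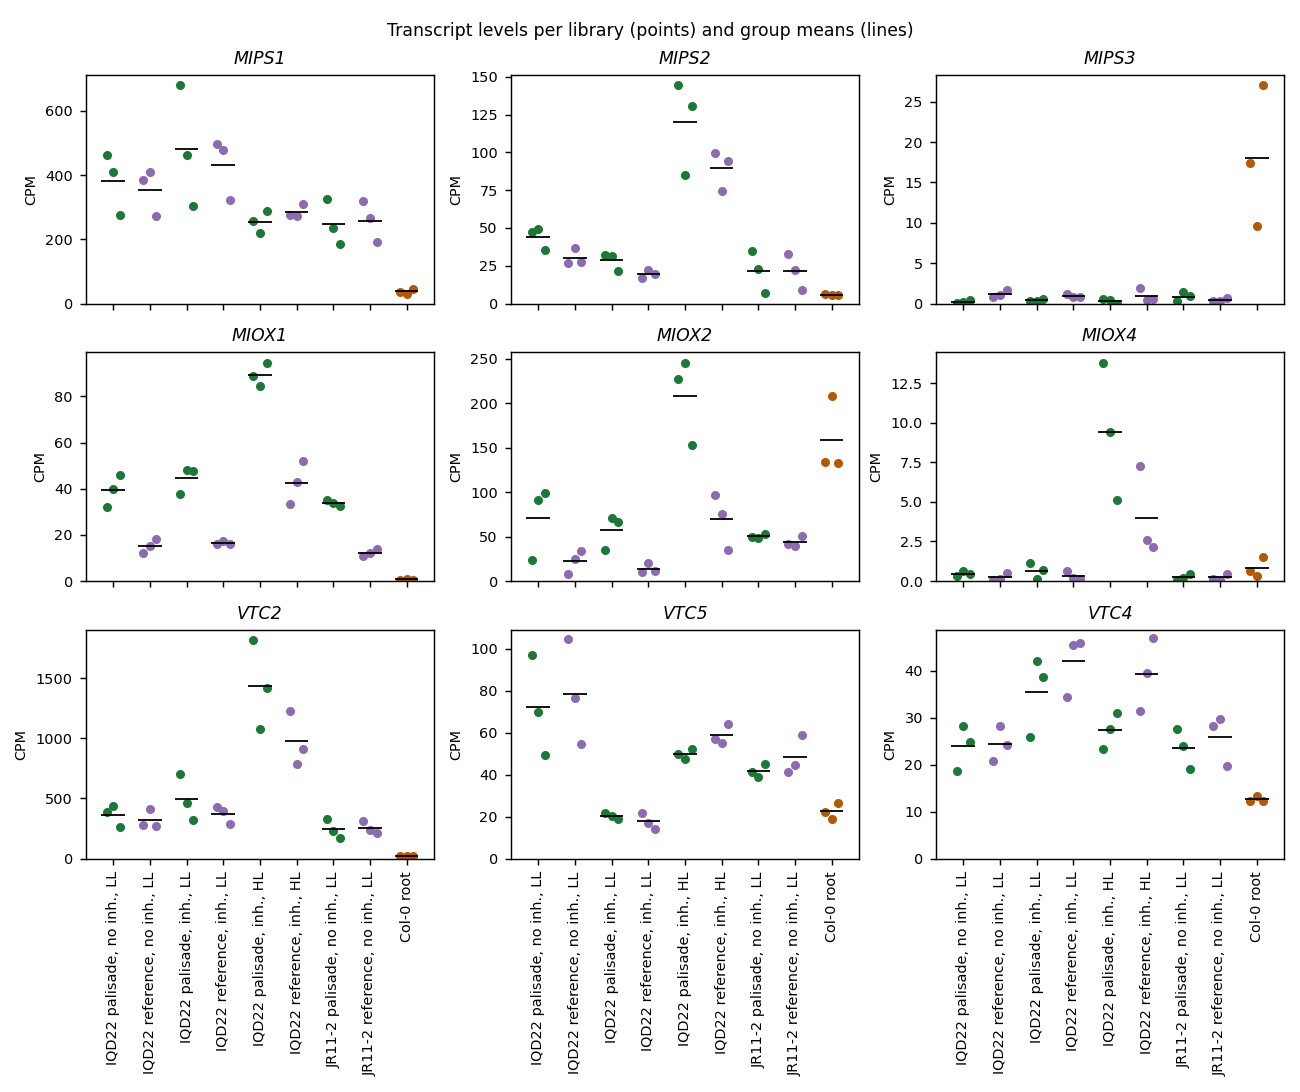
Levels of 9 genes in CPM (linear axes from 0) in 9 groups. Each point is 1 library (3 per group, green for palisade, purple for reference, brown for root) and each line a group mean, with inh. for inhibitors, LL for low light and HL for high light. *VTC2*, *MIPS2* and *MIOX4* stand highest at high light, *MIPS3* in root, and *MIOX1* is higher in palisade than in reference cells of each pair.

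Ordered by mean level, palisade cells at high light came first for *MIOX1*, *MIOX2*, *MIOX4*, *MIPS2* and *VTC2*. For *MIOX1* that group was separated from the next, since its lowest library (84.7 CPM) lay above the highest of palisade cells with inhibitors at low light (48.1 CPM). For *VTC2*, *MIPS2* and *MIOX4* the ranges of palisade and reference cells at high light overlapped, and both lay above all low-light leaf groups. For *MIOX2*, palisade cells at high light (153 to 246 CPM) overlapped with roots (133 to 209 CPM), and the groups from rank 3 to rank 7 overlapped one with the next. Reference cells without inhibitors came first for *VTC5* and, for *VTC4*, those with inhibitors at low light, each overlapping with the next group. Roots came last for *MIPS1*, *MIPS2*, *MIOX1*, *VTC2* and *VTC4*, without overlap with the group above.

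Palisade and reference cells were compared within leaf pools to ask which of these genes differ between palisade and other photosynthetic cells. The paper describes the reference as probably a mix of spongy mesophyll, bundle sheath and vascular cells with chlorophyll. *MIOX1* and *MIOX2* were more than 2-fold higher in *IQD22* palisade cells under all 3 conditions, and *MIOX4* was so at high light. The synthase and ascorbate genes that differed did so by less than 2-fold, except for the rare *MIPS3* transcript, which was lower in the palisade without inhibitors. A gene is said here to differ, rise or fall when edgeR's quasi-likelihood test, with the pool as a block, gave a false discovery rate (FDR) below 0.05 over all nuclear genes tested, and the study's further limit of a 2-fold difference is named where it was met. With inhibitors at low light, 2 of the 9 members tested were more than 2-fold higher in the palisade, where 2.13% of all genes tested were, and no member was more than 2-fold lower (5.56% of all genes).

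*MIOX1* was at 37.6, 48.1 and 47.7 CPM in palisade libraries with inhibitors at low light and at 15.9, 17.2 and 16.2 CPM in the reference libraries of the same pools (replicates 1, 2 and 3). Every palisade library lay above every reference library. The log2 fold change was 1.29 ± 0.10 (SE) with an FDR of 4.0e-09. Without inhibitors, it was at 32.1, 39.7 and 46.1 CPM in palisade and 12.04, 15.4 and 18.1 CPM in reference libraries, again without overlap. The log2 fold change there was 1.34 ± 0.09 (SE, FDR = 5.0e-09). At high light it was at 88.8, 84.7 and 94.5 CPM in palisade and 33.3, 42.8 and 51.8 CPM in reference libraries. This separation gave a log2 fold change of 1.02 ± 0.08 (SE, FDR = 4.1e-12), which was below 2-fold without replicate 1 (0.87) and with at least 10 counts required in every library (0.99).

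*MIOX2* showed a larger difference and more spread between pools. With inhibitors at low light it was at 35.4, 70.5 and 66.9 CPM in palisade and 10.03, 20.0 and 11.6 CPM in reference libraries, and replicate 1 was the lowest of both sets. Even so the palisade libraries all exceeded the reference libraries, and the log2 fold change was 1.92 ± 0.12 (SE, FDR = 3.4e-10). Without inhibitors the palisade libraries held 23.9, 91.0 and 98.8 CPM and the reference libraries 8.27, 25.3 and 33.7 CPM. Here the groups overlapped, because both libraries of the first pool were low, but palisade exceeded reference in 3 of 3 pools and the paired log2 fold change was 1.61 ± 0.09 (SE, FDR = 9.1e-10). At high light the values were 228, 246 and 153 CPM in palisade and 96.8, 75.5 and 35.4 CPM in reference libraries, with no overlap and a log2 fold change of 1.61 ± 0.09 (SE, FDR = 7.7e-16). The paper had also called *MIOX2* higher in sorted palisade cells. Its *MIOX2* promoter reporter was active in guard cells and mesophyll, without expression localized to the palisade. For such reporters the paper names missing regulatory sequence, weak expression or contaminating cells as possible reasons.

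*MIOX4* was too rare at low light for a firm comparison, with 29 counts in the 3 palisade and 21 in the 3 reference libraries with inhibitors. Its log2 fold change there was 0.92 ± 0.60 (SE, FDR = 0.28). At high light it was at 13.8, 9.43 and 5.09 CPM in palisade and 7.24, 2.62 and 2.14 CPM in reference libraries. The groups overlapped, but palisade was higher in each of the 3 pools, and the log2 fold change was 1.24 ± 0.17 (SE, FDR = 3.6e-07), or 0.98 without replicate 2. At high light, 3 of 9 members, all oxygenases, were more than 2-fold higher in the palisade, against 2.06% of all genes tested, and none was more than 2-fold lower (6.36% of all genes).

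Of the synthases, *MIPS2* was modestly higher in the palisade. It was at 47.4, 49.2 and 35.6 CPM in palisade and 27.1, 36.6 and 27.2 CPM in reference libraries without inhibitors. Those ranges overlapped slightly, since replicate 3 of the palisade lay below replicate 2 of the reference, and the paired log2 fold change was 0.50 ± 0.10 (SE, FDR = 6.3e-04). With inhibitors the log2 fold change of *MIPS2* was 0.40 ± 0.11 (SE, FDR = 0.0099) at low light, a call lost without replicate 1 (FDR = 0.096) and in DESeq2 (adjusted *P* = 0.058), and 0.34 ± 0.07 (SE, FDR = 1.9e-04) at high light. *MIPS1* differed only at high light, where it was lower in the palisade by a log2 fold change of -0.24 ± 0.06 (SE, FDR = 0.0032), a call lost without replicate 2 (FDR = 0.22). *MIPS3* was at 0.0981, 0.159 and 0.439 CPM in palisade and 0.857, 1.06 and 1.65 CPM in reference libraries without inhibitors, with every palisade library below every reference library. These values rest on 15 and 80 counts, a ratio of 4.95 with a 95% exact binomial interval of 2.83 to 9.24 that covers counting error only, and the log2 fold change was -2.37 ± 0.41 (SE, FDR = 2.0e-04). With inhibitors, *MIPS3* missed the FDR limit at low light (-1.21 ± 0.45, SE, FDR = 0.051) and at high light (-1.46 ± 0.60, SE, FDR = 0.053). Without inhibitors, *MIOX1* and *MIOX2* were the 2 of 9 members more than 2-fold higher (2.04% of all genes) and *MIPS3* the 1 more than 2-fold lower (6.7% of all genes).

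The ascorbate genes differed by less than 2-fold and not in 1 direction. *VTC2* was at 1814, 1075 and 1420.1 CPM in palisade and 1225, 785 and 911 CPM in reference libraries at high light. The ranges overlapped, and palisade exceeded reference in each pool (log2 fold change 0.49 ± 0.06, SE, FDR = 1.0e-07). At low light with inhibitors it was 0.22 ± 0.08 (SE, FDR = 0.047), and that call was lost when any 1 pool was left out (FDR from 0.055 to 0.49) and in DESeq2 (adjusted *P* = 0.11). *VTC4* was lower in the palisade with inhibitors, by a log2 fold change of -0.39 ± 0.09 (SE, FDR = 0.0028) at low light and -0.58 ± 0.08 (SE, FDR = 7.1e-07) at high light. *VTC5* was also lower at high light (log2 fold change -0.30 ± 0.07, SE, FDR = 0.0014). Without inhibitors, the log2 fold changes of *VTC2*, *VTC5* and *VTC4* were 0.14, -0.17 and -0.08, with FDR from 0.12 to 0.55.

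**Figure D2:**
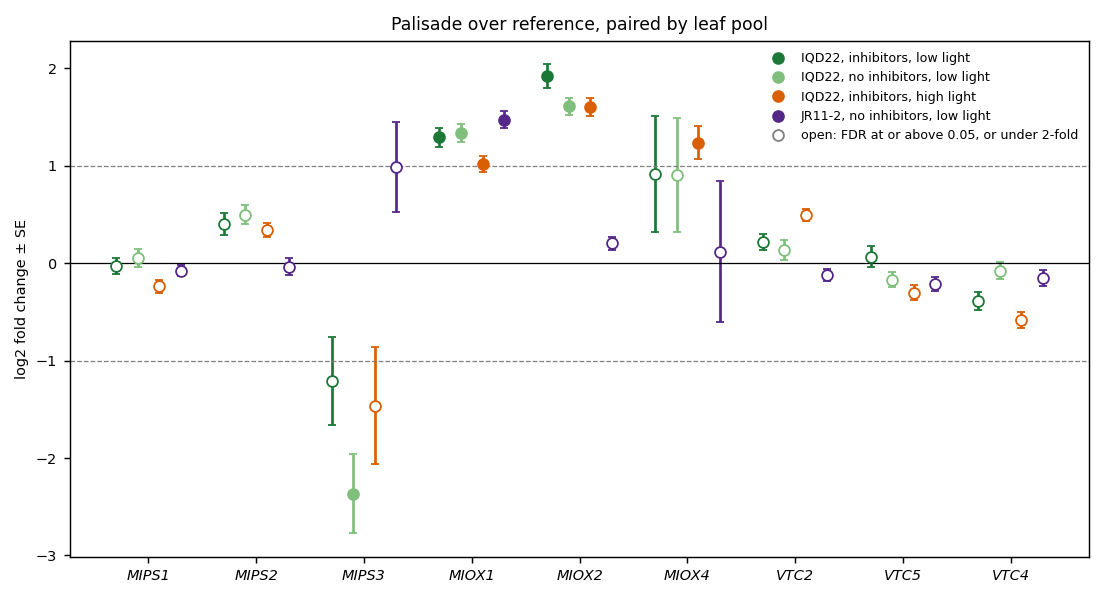
Log2 fold change of palisade over reference libraries (points, bars for ± SE) for 9 genes in 4 comparisons paired by leaf pool, with filled points for FDR below 0.05 and more than 2-fold (dashed lines mark 2-fold). *MIOX1* is filled in all 4 comparisons, from 1.02 to 1.47, whereas *MIOX2* is filled in the 3 *IQD22* comparisons and is at 0.20 in JR11-2.

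The JR11-2 line gave a second separation of leaf cells, through a spongy mesophyll reporter. In it *MIOX1* again differed strongly, while *MIOX2* hardly did. *MIOX1* was at 35.1, 33.7 and 32.5 CPM in libraries labelled palisade and 10.7, 11.96 and 13.8 CPM in reference libraries, with no overlap and a log2 fold change of 1.47 ± 0.09 (SE, FDR = 2.6e-10). *MIOX2* was at 49.7, 48.5 and 53.1 CPM in palisade and 41.5, 39.0 and 50.5 CPM in reference libraries. These ranges overlapped, and the log2 fold change of 0.20 ± 0.07 (SE, FDR = 0.038) lost its call without replicate 1 or 2 (FDR = 0.23 and 0.29) and in DESeq2 (adjusted *P* = 0.16). *VTC5* was lower in the palisade by a log2 fold change of -0.21 ± 0.07 (SE, FDR = 0.041), a call lost without replicate 2 or 3 (FDR = 0.067 and 0.31) and in DESeq2 (adjusted *P* = 0.20). *MIOX1* was the 1 of 9 members more than 2-fold higher, against 0.714% of all genes tested, and none was more than 2-fold lower (1.44% of all genes).

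The difference between lines was tested as an interaction over the 12 libraries without inhibitors, with no limit on the fold difference. Of the 9 members, 3 had an FDR below 0.05, against 15.2% of all genes tested. For *MIOX2* the palisade-to-reference log2 difference was larger in the *IQD22* line by 1.43 ± 0.12 (SE, FDR = 4.3e-10). For *MIPS2* it was larger by 0.55 ± 0.13 (SE, FDR = 0.0040), and for *MIPS3* the interaction was -3.35 ± 0.64 (SE, FDR = 4.7e-04). *MIPS3* was at 0.279, 1.37 and 0.881 CPM in palisade and 0.327, 0.287 and 0.661 CPM in reference libraries of JR11-2, overlapping ranges in which the palisade mean was the higher. For *MIOX1* the interaction was -0.12 ± 0.13 (SE, FDR = 0.61). These 3 calls rested on the pairing of libraries by pool, and no member passed in a fit without it (FDR of 0.49, 0.89 and 0.081 for *MIOX2*, *MIPS2* and *MIPS3*). The lines also differed in *SULTR2;2*, given above, and in *IQD22*, at 88.4 to 109 CPM in palisade and 69.5 to 78.8 CPM in reference libraries of JR11-2, against 86.9 to 134 CPM and 44.7 to 62.9 CPM in those of the *IQD22* line. The 3 phloem markers together, like the mean of *MIPS3*, were the higher in palisade libraries of JR11-2 and in reference libraries of the *IQD22* line. They summed to 9.71 to 22.1 CPM in palisade and 5.40 to 10.5 CPM in reference libraries of JR11-2, against 3.71 to 7.34 CPM and 7.49 to 17.7 CPM in those of the *IQD22* line without inhibitors. Their interactions were -2.12 for *SUC2*, -1.81 for *APL* and -4.20 for *SEOR1* (FDR = 8.7e-10, 0.0066 and 3.0e-06). The 4 guard cell markers summed to 0.836 to 3.52 CPM in palisade and 0.654 to 1.19 CPM in reference libraries of JR11-2. In those of the *IQD22* line without inhibitors they summed to 0.212 to 1.10 CPM and 0.804 to 3.01 CPM, and in both lines the ranges overlapped. The part of these cell types, or of any remaining difference in genetic background, in the differences between lines was not tested.

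High light was compared with low light among inhibitor-treated libraries, separately for palisade and reference cells, to ask how these genes respond to 2 h of brighter light. Transcripts of inositol oxygenases, *MIPS2*, *VTC2* and *VTC5* rose in both cell populations, and *MIPS1* fell. In palisade cells, 5 of 9 members rose more than 2-fold (8.07% of all genes tested) and 1 fell more than 2-fold (5.15% of all genes). In reference cells, 6 of 9 rose more than 2-fold (10.1% of all genes) and none fell more than 2-fold (6.57% of all genes). The high-light and low-light libraries came from different pools, so that light and pool cannot be told apart and these fits had no block. They used the same libraries as the palisade and reference comparisons above, and are not independent of them.

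*MIPS1* and *MIPS2*, which encode the same reaction, moved in opposite directions. *MIPS2* was at 32.4, 31.4 and 21.7 CPM in palisade libraries at low light and 145, 85.1 and 131 CPM at high light. The groups did not overlap, and the log2 fold change was 1.96 ± 0.19 (SE, FDR = 1.2e-05). In reference cells it was at 16.6, 22.5 and 19.5 CPM at low light and 99.6, 74.6 and 94.1 CPM at high light (log2 fold change 2.00 ± 0.14, SE, FDR = 1.2e-06). *MIPS1* was at 681, 462 and 305 CPM in palisade libraries at low light and 256, 218 and 288 CPM at high light. The palisade groups did not overlap, although replicate 3 at low light came close to the high-light libraries, and the log2 fold change was -1.03 ± 0.22 (SE, FDR = 0.0036). It was -0.73 without replicate 1 at low light and -0.96 without replicate 2 at high light, both below 2-fold, as was the value with a replicate block (-0.98). In reference cells *MIPS1* was at 498, 478 and 323 CPM at low light and 275, 273 and 311 CPM at high light (log2 fold change -0.79 ± 0.15, SE, FDR = 0.0017). The ratio of *MIPS1* to *MIPS2* per kb was thus 17.8 ± 4.10 (SD, n = 3) in palisade cells at low light and 2.33 ± 0.425 (SD, n = 3) at high light. The synthase transcripts together were at 156 to 340 CPM per kb at low light and 142 to 196 CPM per kb at high light in palisade libraries, ranges that overlapped.

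All 3 oxygenases with measurable transcripts rose with light. *MIOX2* rose from the palisade values of 35.4 to 70.5 CPM at low light to 153 to 246 CPM at high light, without overlap (log2 fold change 1.74 ± 0.25, SE, FDR = 2.4e-04). In reference cells *MIOX2* rose from 10.03 to 20.0 CPM to 35.4 to 96.8 CPM (2.13 ± 0.33, SE, FDR = 3.3e-04). *MIOX1* rose by a log2 fold change of 0.89 ± 0.13 (SE, FDR = 2.8e-04) in palisade and 1.19 ± 0.16 (SE, FDR = 1.1e-04) in reference cells, and in both the high-light libraries all lay above the low-light libraries. *MIOX4* was at 1.11, 0.133 and 0.705 CPM in palisade libraries at low light and at 13.8, 9.43 and 5.09 CPM at high light, sets that did not overlap. Its log2 fold change was 3.75 ± 0.47 (SE, FDR = 9.2e-05) in palisade and 3.36 ± 0.60 (SE, FDR = 8.7e-04) in reference cells. The summed counts of *MIOX4* went from 29 to 408 in palisade libraries, a ratio of 14.7 with a 95% exact binomial interval of 10.1 to 22.3, and from 21 to 193 in reference libraries. Since *MIOX4* started near the floor, it still made up little of the oxygenase transcript pool at high light, at 6.31 CPM per kb against 129 CPM per kb of *MIOX2* in palisade cells.

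Of the ascorbate genes, *VTC2* was at 705, 461 and 318 CPM in palisade libraries at low light and 1814, 1075 and 1420.1 CPM at high light. The lowest high-light library lay above the highest low-light library, and the log2 fold change was 1.43 ± 0.25 (SE, FDR = 9.7e-04). In reference cells *VTC2* rose from 432, 397 and 289 CPM to 1225, 785 and 911 CPM (log2 fold change 1.19 ± 0.18, SE, FDR = 2.9e-04). *VTC5* was at 21.8, 20.1 and 18.7 CPM in palisade libraries at low light and 49.6, 47.2 and 52.4 CPM at high light, a close set of replicates (log2 fold change 1.19 ± 0.11, SE, FDR = 9.5e-06). In reference cells it was 1.53 ± 0.15 (SE, FDR = 1.2e-05). *VTC4* did not pass the test in either population, with log2 fold changes of -0.50 ± 0.18 (SE, FDR = 0.053) in palisade and -0.28 ± 0.17 (SE, FDR = 0.19) in reference cells.

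**Figure D3:**
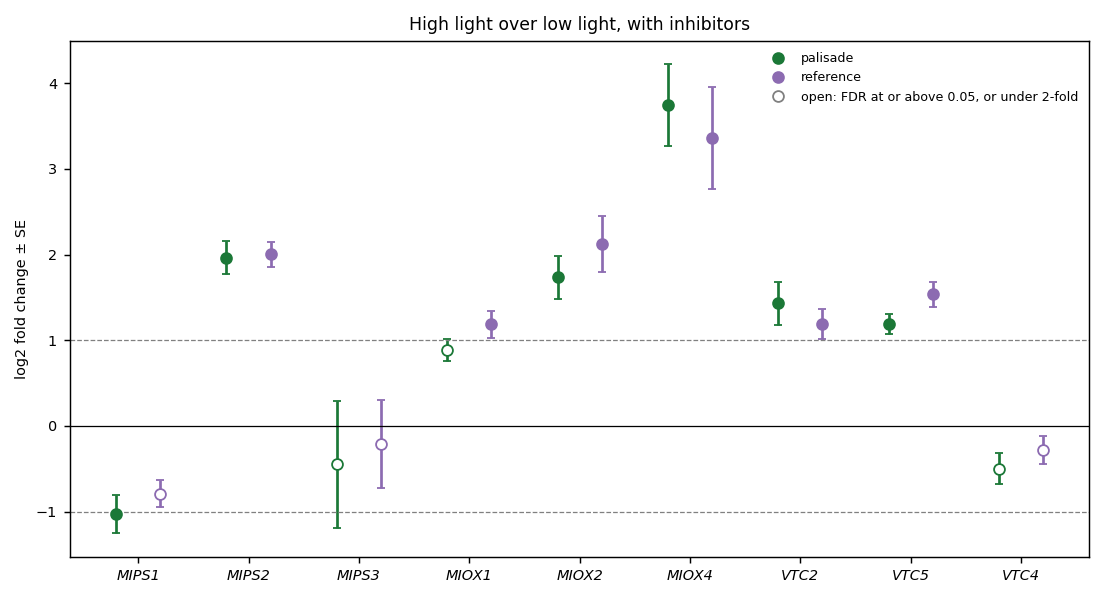
Log2 fold change of high over low light (points, bars for ± SE) for 9 genes in palisade (green) and reference (purple) libraries with inhibitors, with filled points for FDR below 0.05 and more than 2-fold (dashed lines). *MIOX4* has the highest values, 3.75 and 3.36, *MIPS2* lies near 2 in both populations and *MIPS1* lies below 0 in both.

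Whether the light response differed between palisade and reference cells was tested as an interaction over the same 12 libraries. None of the 9 members had an FDR below 0.05 in edgeR, where 5.54% of all genes did. At an unadjusted *P* below 0.05 there were 4 (*MIOX1*, *MIPS1*, *VTC2* and *VTC5*), and DESeq2 called 0. The smallest FDR was that of *VTC5*, whose response was lower in the palisade by 0.39 ± 0.13 on the log2 scale (SE, FDR = 0.075), and for *VTC2* the difference was 0.25 ± 0.11 (SE, FDR = 0.22). Without the first pool at low light, *VTC2* and *VTC5* passed, so 2 members were called. For *MIPS2* the difference was -0.08 ± 0.14 (SE), and for *MIOX2* it was -0.33 ± 0.17 (SE).

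The other genes of these pathways did not move as 1 group with light. Of the 9 other genes of the L-galactose route, 3 rose and 2 fell in palisade cells at any fold, where 19.2% of all genes tested rose and 16.4% fell. *PMI2*, a phosphomannose isomerase, rose by a log2 fold change of 3.58 ± 0.25 (SE, FDR = 6.8e-07) and *GME*, the GDP-mannose epimerase that makes the substrate of VTC2, by 0.79 ± 0.17 (SE, FDR = 0.0031). *GLDH*, which encodes the last enzyme of the route, fell by a log2 fold change of -0.76 ± 0.14 (SE, FDR = 0.0014), and *PMI1* by -0.65 ± 0.16 (SE, FDR = 0.0070). The median log2 fold change of these 9 genes was -0.24, beside -0.01 over all genes tested. In reference cells 3 rose and 3 fell (21.8% and 20.5% of all genes), *PMI2* again having the largest change (3.82 ± 0.23, SE, FDR = 3.0e-07).

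Of 11 genes for ascorbate recycling and oxidation, 5 rose and 1 fell in palisade cells (19.2% and 16.4% of all genes), and 8 rose and 1 fell in reference cells (21.8% and 20.5% of all genes). *MDAR3*, a monodehydroascorbate reductase, had the largest change of the list in reference cells, from 0.254 to 0.573 CPM at low light to 4.58 to 7.63 CPM at high light (3.61 ± 0.33, SE, FDR = 8.4e-06). In palisade cells its value was 1.37 ± 0.56 (SE, FDR = 0.079). *DHAR2*, a dehydroascorbate reductase, rose by 2.32 ± 0.14 (SE, FDR = 3.2e-07) in palisade and 2.67 ± 0.13 (SE, FDR = 7.3e-08) in reference cells, and *MDAR6*, another monodehydroascorbate reductase, fell in both (-1.90 ± 0.16 and -1.79 ± 0.16, SE). Of 6 regulators and transporters of ascorbate, 5 were tested, of which 2 rose and 1 fell in palisade cells and 3 rose and 1 fell in reference cells. *CSN5B*, a COP9 signalosome subunit gene, had the largest change of that list and fell in both populations (-1.71 ± 0.38 and -1.35 ± 0.28, SE, FDR = 0.0042 and 0.0025). *PLP*, a light-regulated PAS/LOV protein gene, rose by 1.62 ± 0.16 (SE, FDR = 1.6e-05) in palisade cells, and *PHT4;4*, a chloroplast envelope ascorbate transporter, by 0.72 ± 0.14 (SE, FDR = 0.0017).

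AT5G14470, annotated as a galactokinase but listed here with the glucuronokinases, rose with light by 3.71 ± 0.24 (SE, FDR = 4.7e-07) in palisade cells. In reference cells it rose by 3.24 ± 0.25 (SE, FDR = 2.2e-06). Whether it acts on glucuronate was not tested. Its list of 7 genes covers glucuronate and UDP-glucuronate steps after or beside inositol oxygenase. That list includes the UDP-glucose dehydrogenase genes *UGD1* to *UGD4*, whose enzymes make UDP-glucuronate without inositol. Of the 7, 2 rose and 0 fell in either population, the other being *USP*, the pyrophosphorylase (0.39 ± 0.13 and 0.50 ± 0.13, SE). Among 20 genes of inositol transport and use, 18 were tested, of which 3 rose and 2 fell in palisade cells, where 19.2% of all genes rose and 16.4% fell. In reference cells 6 of the 18 rose and 3 fell (21.8% and 20.5% of all genes). *MIK*, a *myo*-inositol kinase, rose by 1.48 ± 0.21 (SE, FDR = 1.9e-04) in palisade cells, *IPK1*, an inositol pentakisphosphate kinase, by 1.01 ± 0.13 (SE, FDR = 1.2e-04), and *GOLS1*, a galactinol synthase that consumes inositol, by 0.93 ± 0.20 (SE, FDR = 0.0035). In reference cells *GOLS1* rose by 2.00 ± 0.19 (SE, FDR = 1.1e-05) and *GOLS2* by 1.52 ± 0.30 (SE, FDR = 0.0017).

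The light response differed between the populations for 3 of the 11 recycling genes, 1 of the 5 regulators and transporters tested and 1 of the 18 inositol genes tested (interaction, 5.54% of all genes), and for no gene tested of the other 3 lists. All of these responses were lower in the palisade. The log2 differences were -2.20 ± 0.51 for *MDAR3*, -0.999 ± 0.26 for AT4G39830 and -0.37 ± 0.11 for *DHAR2* (SE, FDR = 0.0053, 0.014 and 0.035). They were -0.69 ± 0.15 for *ERF98*, a transcription factor gene (SE, FDR = 0.0031), and -1.08 ± 0.18 for *GOLS1* (SE, FDR = 1.3e-04).

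The same lists were also compared between the cell populations. At low light with inhibitors, 2 of the 9 other L-galactose genes were higher in the palisade and none lower at an FDR below 0.05 (15.2% of all genes were higher), with *PMI2* at a log2 fold change of 1.22 ± 0.23 (SE, FDR = 4.4e-04). Of the same 9 genes, 4 were higher and none lower without inhibitors (17.6% and 17.3% of all genes), and 5 were higher and none lower at high light (18.2% and 19% of all genes), all of them by less than 2-fold. With inhibitors at low light, 2 of the 11 recycling genes were higher and 3 lower, and *DHAR1* was the lowest at -1.16 ± 0.11 (SE, FDR = 6.1e-08). Without inhibitors 3 of them were higher and 4 lower, with *DHAR1* at -1.49 ± 0.10 (SE, FDR = 6.6e-09), and at high light 2 were higher and 7 lower, led by *MDAR3* (-2.0015 ± 0.21, SE, FDR = 1.7e-09). None of the 7 genes of the glucuronate and UDP-glucuronate list passed with inhibitors at low light, where 15% of all genes were lower. Without inhibitors 4 of the 7 were lower and none higher (17.3% and 17.6% of all genes), led by the UDP-glucose dehydrogenase genes *UGD4* (-1.07 ± 0.17, SE, FDR = 8.3e-05) and *UGD1* (-0.95 ± 0.29, SE, FDR = 0.017). At high light 2 of the 7 were lower and 1 higher (19% and 18.2% of all genes), the latter being AT5G14470 at 1.15 ± 0.12 (SE, FDR = 1.9e-09). Of the 18 inositol genes tested with inhibitors at low light, 2 were higher and 4 lower, led by *INT4*, an inositol transporter of the plasma membrane (-1.52 ± 0.42, SE, FDR = 0.0082), and by *GOLS2* (-1.46 ± 0.49, SE, FDR = 0.028). Without inhibitors 2 of 19 were higher and 7 lower, and at high light 1 of 18 was higher and 5 lower, with *GOLS2* at -2.16 ± 0.14 and -2.82 ± 0.36 (SE, FDR = 3.5e-09 and 7.9e-08). The transporter gene *INT3* was also called lower without inhibitors, on 1 count in palisade and 13 in reference libraries. In JR11-2, *PMI2* was lower in the palisade libraries (-0.54 ± 0.08, SE, FDR = 2.2e-05), the opposite direction to the *IQD22* line without inhibitors (0.43 ± 0.09, SE, FDR = 9.7e-04). *GOLS2* was higher in the JR11-2 palisade libraries (0.56 ± 0.13, SE, FDR = 0.0033), also opposite to the *IQD22* line, and *DHAR1* did not pass in JR11-2. The line by population interactions of *GOLS2* and *DHAR1* were -2.71 ± 0.20 and -1.36 ± 0.12 (SE, FDR = 4.3e-11 and 3.5e-09).

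Libraries without inhibitors were compared with those prepared with inhibitors at low light to see what is added while the protoplasts are made. *VTC5* stood out among the members, being about 4-fold higher without inhibitors in both populations. It was the 1 of 9 members more than 2-fold higher in palisade cells (19.1% of all genes tested) and in reference cells (20.9% of all genes), and no member was more than 2-fold lower (0.868% and 1.16% of all genes). Inhibitor treatment and pool differed together in these comparisons, and so cannot be told apart.

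*VTC5* was at 96.9, 69.9 and 49.4 CPM in palisade libraries without inhibitors and 21.8, 20.1 and 18.7 CPM with them. The sets did not overlap, and the log2 fold change was 1.90 ± 0.23 (SE, FDR = 7.0e-05). In reference libraries it was at 105, 76.6 and 54.5 CPM without and 21.9, 17.0 and 14.3 CPM with inhibitors (log2 fold change 2.13 ± 0.24, SE, FDR = 3.4e-05). *VTC2*, its paralogue, was at 387, 439 and 266 CPM in palisade libraries without inhibitors and 705, 461 and 318 CPM with them. Those sets overlapped, and its log2 fold change was -0.37 ± 0.27 (SE, FDR = 0.30). *VTC4* was lower without inhibitors in reference cells (-0.81 ± 0.15, SE, FDR = 0.0013), and in palisade cells the value was -0.53 ± 0.22 (SE, FDR = 0.081).

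*MIPS2* was higher without inhibitors by a log2 fold change of 0.69 ± 0.18 (SE, FDR = 0.013) in palisade and 0.61 ± 0.15 (SE, FDR = 0.0077) in reference cells. Upper-quartile scaling, which moved the median of all genes by -0.31 in palisade and -0.26 in reference cells, took both below the limit (FDR = 0.090 and 0.080), and so did leaving out replicate 3 of the inhibitor-treated palisade libraries (FDR = 0.050, above the limit before rounding). *MIOX1* and *MIOX2* did not pass, with log2 fold changes of -0.13 ± 0.17 and 0.34 ± 0.44 (SE) in palisade cells. *MIPS1* was at -0.26 ± 0.27 (SE). Leaving out replicate 1 of the reference libraries without inhibitors put *MIOX2* past both limits in reference cells, so that 2 members were then called. In the interaction of inhibitors with cell population, none of 9 members had an FDR below 0.05 in edgeR (4.75% of all genes did), 2 had an unadjusted *P* below 0.05 (*MIOX2* and *VTC5*) and DESeq2 called 0.

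Several neighbours of these genes differed far more with the inhibitors. *GULLO1*, a gulonolactone oxidase-like gene, was at 5.97 to 8.24 CPM in palisade and 4.995 to 6.94 CPM in reference libraries without inhibitors. With inhibitors it had 3 counts in the palisade libraries together and 0 in the reference libraries, so that no fold change is given. AT5G14470 was higher without inhibitors by 4.05 ± 0.20 (SE, FDR = 2.3e-07) in palisade cells, *UGD2*, a UDP-glucose dehydrogenase, by 2.17 ± 0.20 (SE, FDR = 7.7e-06) and *GLCAK1*, a glucuronokinase, by 2.05 ± 0.17 (SE, FDR = 5.0e-06). In all, 5 of the 7 genes of the glucuronate and UDP-glucuronate list were more than 2-fold higher in palisade cells. None was more than 2-fold lower (19.1% and 0.868% of all genes). Those 5 include UDP-glucose dehydrogenase genes such as *UGD2* and *UGD3*, whose enzymes act beside inositol oxygenase and not after it. *MDAR2* was higher by 3.71 ± 0.23 (SE, FDR = 5.1e-07) and *MIK* by 3.66 ± 0.23 (SE, FDR = 6.3e-07). The other lists held fewer such genes in palisade cells. More than 2-fold higher were 1 of 9 other L-galactose genes, 3 of 11 recycling genes and 3 of 18 inositol genes tested, and none was more than 2-fold lower. Some genes were lower without inhibitors by less than 2-fold, such as *DHAR1* (-0.63 ± 0.15, SE, FDR = 0.0072). *PMI2* was higher by 2.90 ± 0.29 (SE, FDR = 1.6e-05), and it was also among the genes that rose with light in the inhibitor-treated libraries, which share the low-light libraries with this comparison.

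**Figure D4:**
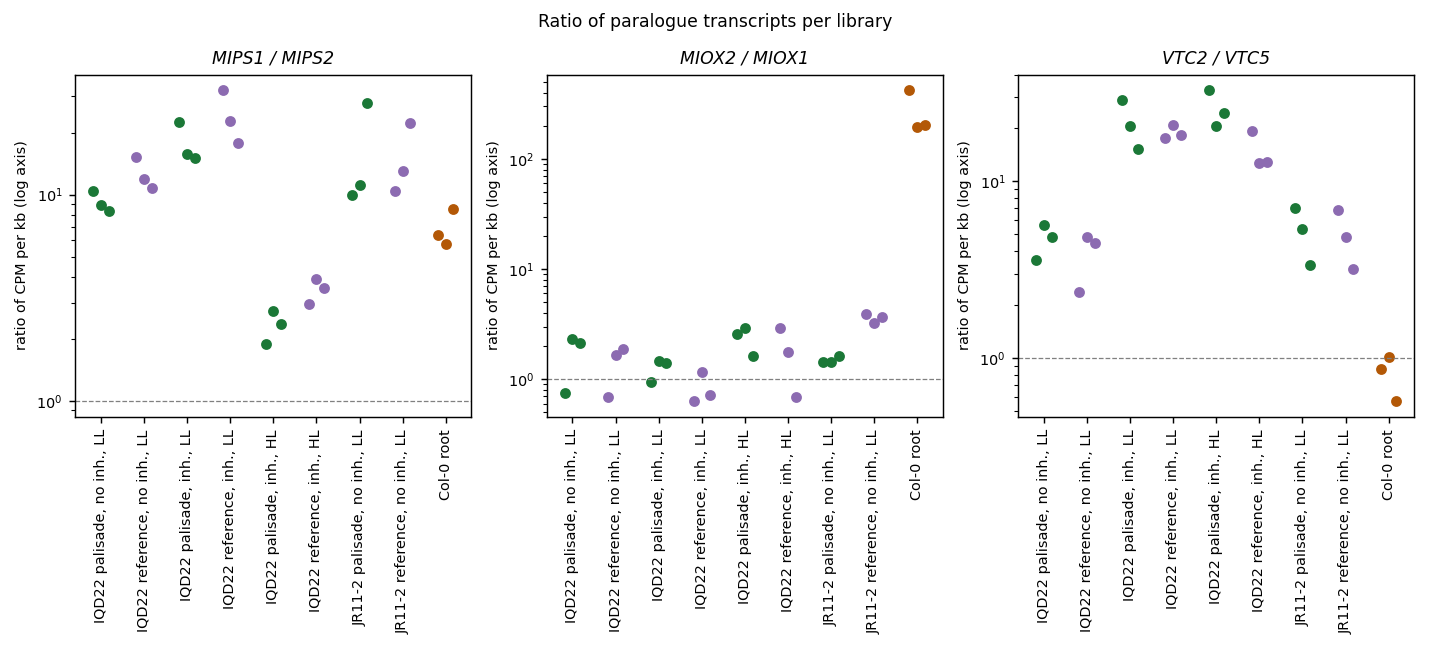
Ratio of transcripts of paralogous genes in each library, as CPM per kb on log axes, in 9 groups of 3 libraries (green for palisade, purple for reference, brown for root), with a dashed line at a ratio of 1. *MIPS1* to *MIPS2* is lowest at high light, *MIOX2* to *MIOX1* is above 190 in root and below 4 in leaf libraries, and *VTC2* to *VTC5* is highest in libraries with inhibitors and lowest in root.

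Roots differed from both leaf populations without inhibitors at nearly every member, in a comparison in which most genes differed. More than 2-fold differences were found for 7 of 9 members against palisade cells (65.3% of all genes tested) and for 8 of 9 against reference cells (64.1% of all genes). Over all genes tested the median log2 difference was 0.38 and 0.32, so that these changes stand relative to a shifted median. Both comparisons share the root libraries.

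*VTC2* was at 21.5, 21.1 and 17.0 CPM in root libraries, far below each palisade library (266 to 439 CPM) and each reference library (271 to 416 CPM). The log2 fold change was -4.22 ± 0.24 (SE, FDR = 2.5e-09) against palisade cells. *VTC5* fell less, at 22.2, 18.8 and 26.7 CPM in root (-1.69 ± 0.24, SE, FDR = 2.6e-05), so that in roots *VTC2* and *VTC5* were at similar levels per kb (9.07 and 11.5 CPM per kb). *VTC4* was lower by a log2 fold change of -0.95 ± 0.20 (SE, FDR = 6.1e-04) against palisade and -0.9997 ± 0.17 (SE, FDR = 1.4e-04) against reference cells, just under 2-fold. With DESeq2's size factors it passed 2-fold in both.

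*MIPS3* was at 17.4, 9.64 and 27.01 CPM in root libraries and at most 1.65 CPM in a leaf library of these groups. No other synthase was higher in root, where *MIPS3* exceeded palisade cells by a log2 fold change of 6.19 ± 0.52 (SE, FDR = 1.2e-07) and reference cells by 3.88 ± 0.40 (SE, FDR = 1.6e-06). *MIPS1* was at 37.3, 30.8 and 44.4 CPM (-3.36 ± 0.25 against palisade cells, SE, FDR = 3.7e-08) and *MIPS2* at 6.26, 5.76 and 5.60 CPM (-2.93 ± 0.20, SE, FDR = 1.2e-08). The oxygenases diverged in the same way. *MIOX1* was at 0.320, 1.07 and 0.650 CPM in root libraries (log2 fold change -5.86 ± 0.35, SE, FDR = 3.5e-09) against palisade cells. *MIOX2* was at 134, 209 and 133 CPM in root, above every palisade library (23.9 to 98.8 CPM) and every reference library (8.27 to 33.7 CPM). Its log2 fold change was 2.77 ± 0.40 (SE, FDR = 3.4e-05) against reference cells. Against palisade cells it was 1.12 ± 0.39 (SE, FDR = 0.019), a call lost without root replicate 2 (FDR = 0.081), and 0.69 without palisade replicate 1.

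*MIOX4* was at 0.660, 0.343 and 1.49 CPM in root libraries, overlapping with both leaf groups. The difference from reference cells was 1.77 ± 0.72 on the log2 scale (SE, FDR = 0.039) and ran from 0.99 without root replicate 3 (FDR = 0.19) to 3.10 without reference replicate 3 (FDR = 0.0092). It also missed the limit without reference replicate 1 or 2 (FDR = 0.15 and 0.12). Among the other pathway genes, *GULLO5*, a gulonolactone oxidase-like gene, had 6714 counts in root and 1 count in palisade libraries, and *MDAR3* had the largest difference of its list (7.27 ± 0.30, SE, FDR = 1.2e-10). *UGD4*, a UDP-glucose dehydrogenase, which makes UDP-glucuronate without inositol, was higher in root by 7.33 ± 0.35 (SE, FDR = 4.7e-10). Of the 9 other L-galactose genes, 4 were higher and 4 lower in root than in palisade cells at any fold (45.1% and 32.5% of all genes tested), led by AT2G04650 (4.38 ± 0.27, SE, FDR = 5.6e-09) and *PMI2* (-2.95 ± 0.25, SE, FDR = 1.1e-07).

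Across the 24 leaf libraries, *VTC2* and *MIPS2* varied together most closely among pairs of members (Pearson's *r* = 0.89 on log2(CPM + 0.5)), followed by *VTC2* with *MIOX4* (0.88) and *MIOX1* with *MIOX2* (0.78), while *VTC5* and *VTC4* had the lowest *r* (-0.59). These correlations describe libraries that share pools, light and inhibitor treatments. Of 12098 other genes with a mean of at least 5 CPM, those whose pattern was most like that of *VTC2* were *BETA-OHASE 1* (0.99), *GME* (0.98), AT1G19140 (0.98), *MBR2* (0.98) and *CYP94D2* (0.98). The genes most like *MIOX2* were *MPL1* (0.92), *XYL4* (0.92), *DIN10* (0.92), *EPR1* (0.92) and AT2G31810 (0.88). *GME* was at 329 to 545 CPM in palisade libraries with inhibitors at low light and 717 to 856 CPM at high light, sets that did not overlap.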

How the data were processed

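Stranded single-end mRNA libraries (27) were aligned by the authors to TAIR10 with TopHat 2.0.9 and counted per gene with HTSeq 0.6.1 (intersection-strict). The deposited values are raw counts per gene. Reads with several alignments (4.33% to 9.75% of listed reads) and reads not assigned to a gene (6.95% to 12.5%) were left out of library sizes.

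The 33323 nuclear genes were tested in R 4.3.3 with edgeR 4.0.16 (TMM, quasi-likelihood *F*-test, Benjamini-Hochberg FDR) if at least 3 libraries of a comparison held at least 2 counts, after the study's methods. With inhibitors at low light, 403 genes were more than 2-fold higher in the palisade and 1055 more than 2-fold lower. Both counts exceed those the study reported at the same limits. The pool was a block between populations of the same pools. Each SE was approximated as the absolute log2 fold change over the root of *F*. Alternatives were DESeq2 1.42.0 (test and size factors), upper-quartile scaling, no filter, at least 10 counts in every library, organelle genes kept, the replicate block removed or added, and each replicate left out. Simulated counts with known changes were used to test the scripts beforehand. The pairing follows the replicate numbers in the sample titles, taken as pools after the study's methods. In paired groups, deviations from group means of libraries with the same number correlated at *r* = 0.40 to 0.86.

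Transcript lengths and names came from the RefSeq TAIR10.1 annotation, matched by identifier for all 10 members, 60 pathway genes and 20 markers. As that build is not the authors', no coordinates or sequences were printed. The members, 6 pathway lists and markers were chosen with earlier results of these data known. All 10 members were described. The rule gave fitted values at an FDR below 0.05, and those of members that did not pass were added in some comparisons after they were seen. Pathway genes were named from the largest absolute change down at an FDR below 0.05, at most 4 per list and comparison. Named outside that rule, after their values were seen, were *MDAR3* for light in palisade cells and *GME* by level. The *P*-values and intervals rest on 3 libraries per group. Python 3.11.15 with pandas 2.3.3 and matplotlib 3.10.9 made summaries and plots.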

Additional observations from a re-analysis of the deposited data

Results flagged for a closer look

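The palisade-to-reference difference was not the same in the *IQD22* and JR11-2 lines for 3 members, by the interaction test in edgeR over 12 libraries without inhibitors. It was larger in the *IQD22* line by 1.43 on the log2 scale for *MIOX2* and by 0.55 for *MIPS2*, and was lower by -3.35 for *MIPS3*. *MIPS3* rests on 15 and 80 counts in the *IQD22* line and on 57 and 25 counts in JR11-2, in palisade and reference libraries. *MIOX1*, at 1.34 in the *IQD22* line and 1.47 in JR11-2, had an interaction of -0.12 (FDR = 0.61). Groups of 3 libraries were too small to test for a sample apart from its group.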

How the results depend on the processing

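None of the 59 member log2 fold changes with an FDR below 0.05 changed direction under the alternatives run, and the others were not rerun one by one. Of the 59, 41 kept their call under every alternative, and 9 of the other 18 lost it only without the replicate block. The count of members called moved as follows. In JR11-2 palisade against reference it was 1 and ran from 1 to 2 with a replicate left out, *MIPS3* being added without replicate 3. In the light by population interaction it was 0 and ran from 0 to 2, and in the comparison of inhibitors in reference cells it was 1 and ran from 1 to 2. In that last comparison upper-quartile scaling gave 2, since *VTC4* passed 2-fold. In the line by population interaction the fit with no replicate block gave 0 in place of 3, and 14 of 23 fold changes from paired comparisons lost their call without the block. In comparisons of different pools, libraries of the same replicate number correlated at *r* from -0.22 to 0.42. They were not paired in the main fits, and adding a replicate block ended 0 of 36 calls. CPM without TMM scaling moved 18 of 90 group levels by more than 1 SD, 7 of them in root. With 3 libraries per group and a floor of 3 counts, *MIOX5*, and *MIOX4* and *MIPS3* in most leaf groups, were limited by depth.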
